A study of Rattus norvegicus with 8 samples.

Results

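Agtr1a, Edn1, Edn3, Ednra, Ednrb, Npr3 and Avpr1a are 7 of the 30560 entries of the deposited gene list. They were taken by symbol for their part in angiotensin and endothelin signalling, with earlier results of these data known. Each was described across the neuron types, glia and vascular cells of the rat nodose ganglion, the sensory ganglion of the vagus nerve. Over all kept nuclei the transcript counts (unique molecular identifiers, UMIs) were 6983 for Ednra, 3780 for Ednrb, 1581 for Npr3, 992 for Agtr1a, 812 for Edn3, 434 for Avpr1a and 214 for Edn1.

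The ganglia came from untreated Long Evans rats aged 8 weeks, 18 male and 18 female. Each pool combined the ganglia of 1 side from 6 rats, and 3 pools were made for each of 4 groups: male left (ML1 to ML3), male right (MR1 to MR3), female left (FL1 to FL3) and female right (FR1 to FR3). No allele, drug or diet was added in any group. Left and right pools of a sex draw on the same rats, so they are not independent animals, and the labels do not say whether pools of 1 number share their rats. The p-values by side measure the spread between these pools.

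Angiotensin II and the endothelins are peptides that constrict blood vessels through receptors coupled to G proteins. Agtr1a encodes the main angiotensin II receptor and Avpr1a the vasopressin receptor of vessels, and both couple to phospholipase C. Edn1 and Edn3 encode endothelin ligands. The receptor encoded by Ednra binds endothelin-1 far better than endothelin-3, whereas the Ednrb product binds both. Npr3 encodes the receptor that clears natriuretic peptides, which relax vessels. In the vagus nerve, sensory neurons carry signals of arterial pressure, airway state and gut content to the brainstem.

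Promoter sequences were available from RefSeq (build GRCr8) for 6 of the 7 genes, all except Edn3. The 250 bases before each annotated start were searched on both strands for 5 short motifs. The TATA box was searched as TATAAA, which 12.93% of 33469 rat promoters of the same length held. For the GC box the letters were GGGCGG, present in 30.47% of promoters. The GATA motif was searched as AGATAA, found in 10.3%. For AP-1 the letters TGACTAA were used, found in 1.993%. The SOX motif was searched as ACAATG, found in 11.08%. Edn1 is shown because its transcripts lay mainly in vascular nuclei, and Agtr1a and Avpr1a because their levels were highest in the same neuron subcluster. Capitals mark the matches, which are letters only and no measured site. The stretches are Agtr1a chr17:34435433-34435582 (minus strand, bases 150 to 1 before the start), Avpr1a chr7:59999493-59999642 (plus strand, 250 to 101) and Edn1 chr17:22666788-22666917 (minus strand, 230 to 101).
Agtr1a: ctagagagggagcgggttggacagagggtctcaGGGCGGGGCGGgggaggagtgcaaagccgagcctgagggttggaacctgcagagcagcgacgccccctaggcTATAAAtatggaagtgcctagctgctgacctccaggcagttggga
Avpr1a: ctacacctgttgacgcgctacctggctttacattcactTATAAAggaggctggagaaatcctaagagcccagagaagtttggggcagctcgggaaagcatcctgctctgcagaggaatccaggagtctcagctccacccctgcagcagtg
Edn1: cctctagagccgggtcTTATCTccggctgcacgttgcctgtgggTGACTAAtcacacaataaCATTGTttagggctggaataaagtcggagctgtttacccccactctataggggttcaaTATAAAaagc
Agtr1a carried a TATA box starting 45 bases before the start and 2 overlapping GC boxes at 117 and 112. In Edn1 the GATA letters (on the minus strand) began at 214, AP-1 at 186, SOX (minus strand) at 168 and the TATA box at 110. Avpr1a had a TATA box at 212. None of the 5 motifs was found in the windows of Ednra, Ednrb and Npr3.

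The 36738 kept nuclei held 139954192 UMIs with a median of 2680, and pool totals ran from 7139364 to 19456287 UMIs over 1738 to 4849 nuclei. Clusters, made without the 7 genes and without the pathway genes named further on, gave 25722 neuron-like nuclei in 25 subclusters (70.0%), 3597 satellite glia-like, 2218 myelinating Schwann cell-like, 773 endothelial-like, 196 mural-like and 165 fibroblast-like nuclei. A further 365 skeletal muscle-like nuclei came mostly from 1 pool (273 nuclei), and 3702 nuclei (10.1%) stayed unnamed. Class names are used below without "-like", and subclusters are written n0 to n27 for neurons and v0 to v8 for vascular nuclei. Levels are CPM, the UMIs of the gene per 1000000 UMIs of the same nuclei, and levels of different genes are not compared. Among the markers of nodose neurons, neurons held Htr3b (227 CPM), Htr3a (118), P2rx2 (92.6) and Phox2a (1.23), with Hmx2 and Hmx3 at 0. Satellite glia held the same markers at 122, 89.9, 92.4 and 1.57 CPM, so levels of neuronal RNA outside neurons were not low. Y-linked transcripts went against the sex label in ML1 (2.88 CPM) and FL1 (88.6 CPM). The remaining pools labelled male held 84.4 to 91.3 CPM and those labelled female 2.73 to 3.95. Sex is therefore called labelled sex, and results that rest on those 2 pools are given with and without them. All 8 sublibraries held all 12 pools, and 3808 nuclei carried a well combination that also occurred in another sublibrary.

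**Figure D1:**
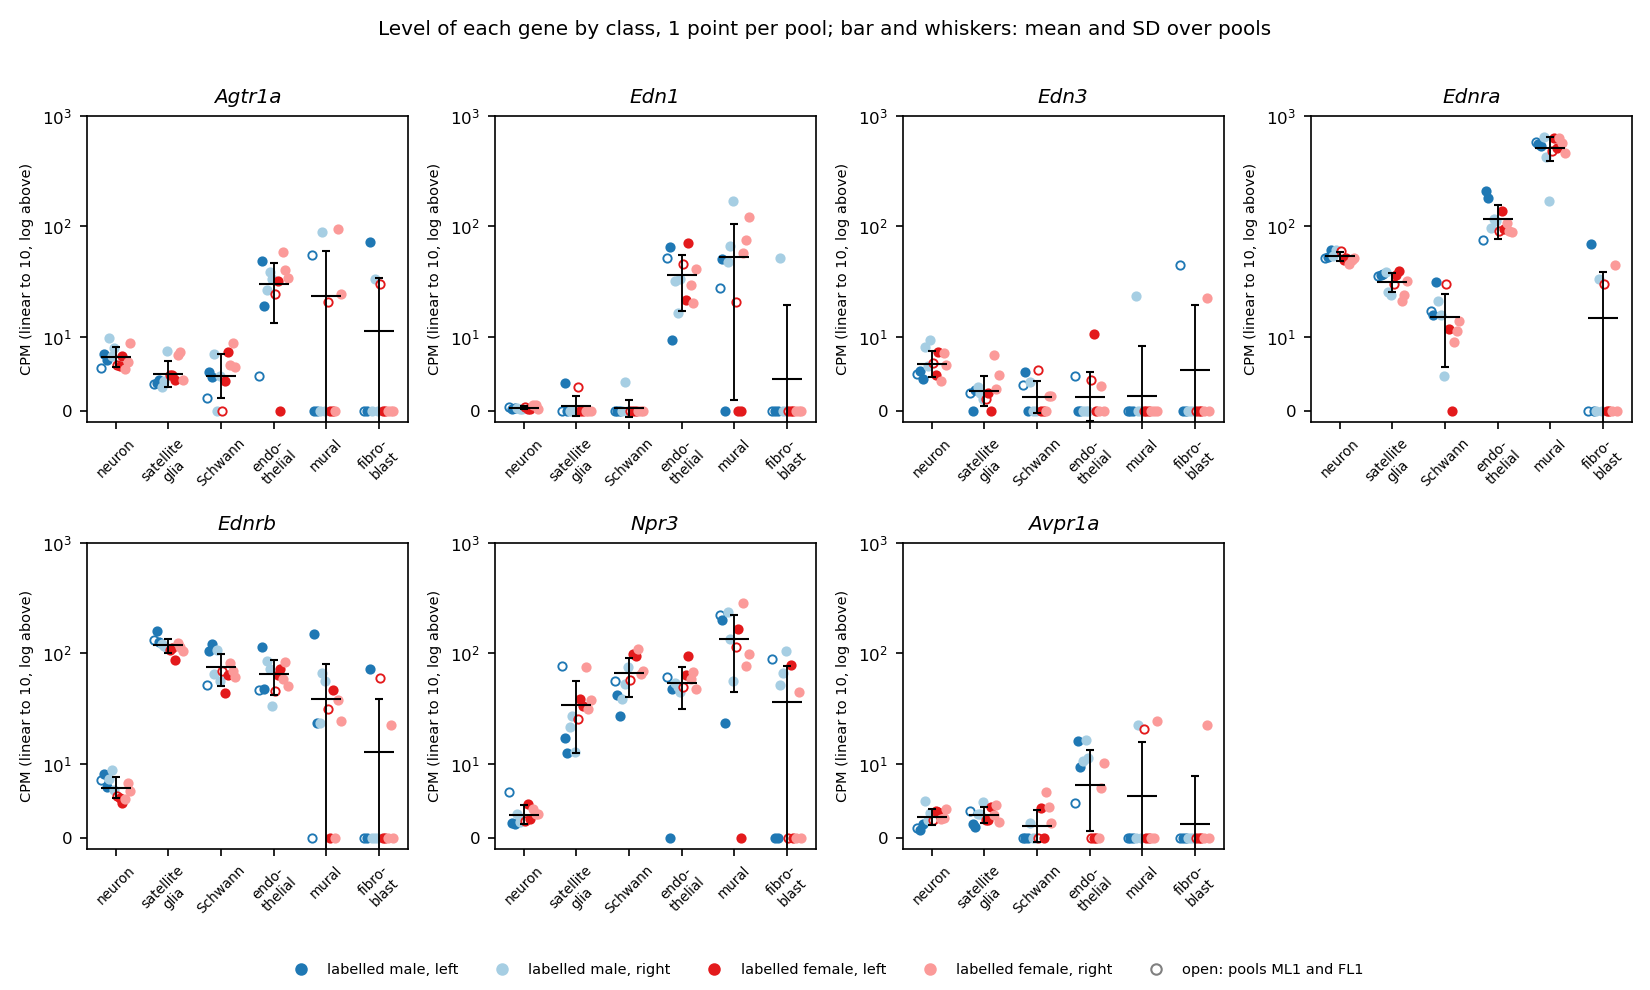
Level of each of the 7 genes (y axis, CPM, linear up to 10 and log above, the same for every gene) in each class (x axis), with 1 point per pool of at least 5 nuclei, a bar at the mean and whiskers of 1 SD over pools, cut off at the lower edge of the axis. Ednra is highest in mural nuclei in the plot, Ednrb in satellite glia, and Edn1 lies near 0 in neurons, satellite glia and myelinating Schwann cells.

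Edn1, the endothelin of vessel walls, was found mainly in vascular nuclei. In endothelial nuclei its level was 9.55 CPM in the lowest pool, 32.8 at the median and 71.4 in the highest (36.3 ± 19.1, SD, n = 12 pools). In mural nuclei, the smooth muscle cells and pericytes around vessels, it was 53.1 ± 51.6 CPM, with 3 of 12 pools at 0. The 2 levels did not differ beyond the spread between pools (exact sign-flip test over pools, adjusted p = 0.893, higher in mural nuclei in 6 of 12 pools). They rested on 65 endothelial and 22 mural Edn1 UMIs. Endothelial markers summed to 3267 CPM in mural and 2614 in endothelial nuclei, and neuron markers to 1454 and 5387. The part of RNA from other cells in the 2 Edn1 levels was not tested. Where the clusters were redrawn in 4 other ways, the mean endothelial level was higher, at 55.7 CPM with the left-out genes kept, 58.1 with at least 500 genes per nucleus, 61.1 at clustering resolution 0.5 and 67.1 at resolution 2, and at those 2 resolutions it lay above the mural level. Endothelial nuclei exceeded fibroblasts, the next class, in 11 of 12 pools (adjusted p = 0.00488, log2 difference 2.60 ± 1.24 on the log2(CPM + 5) scale). The fibroblast level of 4.32 CPM rested on 1 Edn1 UMI. Neurons held 38 Edn1 UMIs, a level of 0.381 CPM. The share of nuclei with an Edn1 UMI was 0.140% in neurons (median 2911 UMIs), 0.139% in satellite glia (median 2029) and 0.0902% in myelinating Schwann cells (median 1552), against 7.24% in endothelial nuclei (median 1582). Whether the low shares in the first 3 classes are background or expression was not tested.

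Among the vascular clusters, Edn1 was uneven. Cluster v5, 114 nuclei that carried both endothelial and mural markers and was left unnamed, held 69 of the 214 Edn1 UMIs (32.2%), although it held 0.218% of all UMIs. In the 10 pools with at least 5 nuclei of v5, Edn1 ran from 144 to 344 CPM with a median of 195 (213 ± 63.7, SD). Cluster v6, an endothelial cluster led by Mecom, Eln, Pecam1 and Bmx, ran from 59.5 to 300.1 CPM over 8 pools (160 ± 88.7, SD). The other endothelial clusters with over 100 nuclei had pooled levels of 68.0 (v1), 32.2 (v4), 31.3 (v2) and 3.84 CPM (v0). The ranges of v5 and v6 overlapped, and every pool of v5 exceeded the highest pool of v0 (9.02 CPM). Cluster v0 also carried satellite glia markers (summed level 2459 CPM, against 486 in v6), and their part in its low Edn1 was not tested.

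Edn3, an endothelin that in embryos guides the neural crest cells of the gut and skin, marked 1 neuron subcluster. In n7, 1329 nuclei led by Edn3 itself with Chrdl1, Kcng1 and Vwf, it ran from 40.3 CPM in the lowest pool through 83.7 at the median to 125 in the highest (84.7 ± 23.1, SD, n = 12). The next subcluster, n16, had 8.20 ± 7.48 CPM, so that the lowest pool of n7 lay above the highest pool of n16 (18.4 CPM). The difference was 2.96 ± 1.06 on the log2(CPM + 5) scale and had the same direction in 12 of 12 pools (exact sign-flip test, adjusted p = 0.0197 over 161 neighbouring pairs of subclusters and genes). Pairs were chosen from the same levels that they test. Subcluster n7 held 43.5% of all Edn3 UMIs and 2.98% of all UMIs. An Edn3 UMI was seen in 19.6% of its nuclei (95% exact binomial interval 17.5 to 21.9, median 2656 UMIs), against 0.517% of endothelial nuclei (median 1582 UMIs). The other 24 subclusters were all under 20 CPM. Across classes, neurons (6.36 ± 1.79 CPM, 625 UMIs) were higher than the next class, fibroblasts (5.57 CPM, only 2 UMIs), in 10 of 12 pools. The exact sign-flip test did not separate the 2 classes (adjusted p = 0.200). That call was unstable: neurons passed the test against their next class without ML1 (adjusted p = 0.0293), with a pseudocount of 1 (0.0326), with the left-out genes kept for clustering (0.0057), with at least 500 genes per nucleus (0.0435) and at resolution 0.5 (0.00342), and fibroblasts were above neurons without MR3 and with at least 10 nuclei per pool.

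Ednra, the receptor for endothelin-1 on smooth muscle, was highest in mural nuclei. The mural level was 170 CPM in the lowest pool, 543 at the median and 637 in the highest (514 ± 128, SD, n = 12). Endothelial nuclei followed with 75.1, 102 and 209 CPM (117 ± 40.6), and only the lowest mural pool overlapped with them. The mural level exceeded the endothelial level by 2.09 ± 0.65 on the log2(CPM + 5) scale in 12 of 12 pools (adjusted p = 0.00342, exact sign-flip test over 35 neighbouring pairs of classes and genes). Neurons, at 45.5, 52.4 and 61.5 CPM (54.0 ± 5.23), were lower than endothelial nuclei in 12 of 12 pools (adjusted p = 0.00342), and satellite glia (31.7 ± 6.41) were lower than neurons in 12 of 12 pools (adjusted p = 0.00342). Myelinating Schwann cells (15.2 ± 9.24) were below satellite glia in 11 of 12 pools (adjusted p = 0.00488) and did not differ from fibroblasts (14.8 CPM, adjusted p = 0.294). Fibroblasts held only 5 Ednra UMIs, and carried myelinating Schwann cell markers at a summed 5509 CPM beside fibroblast markers at 5723. Neuron markers summed to 9647 CPM in neurons, 8805 in satellite glia and 3621 in myelinating Schwann cells. The part of neuronal RNA in the glial Ednra levels was not tested. Mural nuclei also carried endothelial markers, at a summed 3315 CPM in v3 and 3123 CPM in v7, beside mural markers at 10726 and 5260 CPM. Endothelial nuclei in turn carried mural markers at a summed 1334 CPM, against 223 CPM in neurons. Among the endothelial clusters this sum ran from 753 (v0) to 1954 CPM (v6). The part of these mural markers in the endothelial Ednra level was not tested. Ednra stood at a pooled 509 CPM in v3, led by Myh11 and Acta2 of contractile smooth muscle, and 537 CPM in v7, led by Notch3 and Rgs5. The mural markers did not all divide these 2 clusters alike. Rgs5 was at 809 CPM in v7 and 172 in v3, and Notch3 at 932 and 830. Myh11 was at 1522 CPM in v7 and 7338 in v3, and Kcnj8 at 8.80 and 14.6. Cluster v5 had 236 CPM of Ednra and the endothelial clusters between 58.9 (v0) and 189 CPM (v1).

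**Figure D2:**
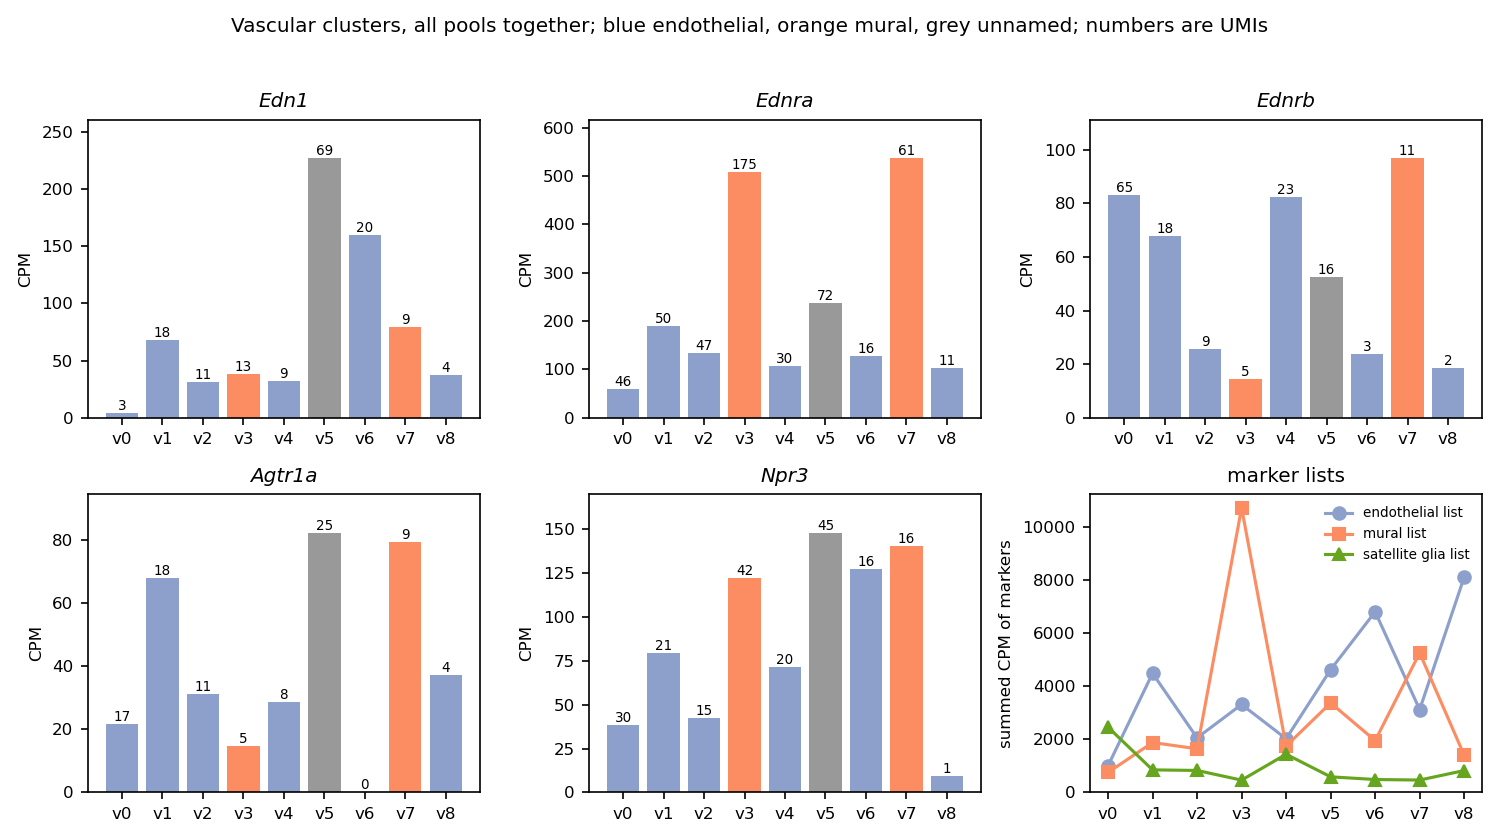
Level (y axis, CPM, all pools together) of Edn1, Ednra, Ednrb, Agtr1a and Npr3 in vascular clusters v0 to v8 (x axis), with the UMIs behind each bar printed above it, and in the last panel the summed CPM of the endothelial, mural and satellite glia marker lists in the same clusters. Ednra is highest in the mural clusters v3 and v7, and Edn1 in the unnamed v5 and the endothelial v6.

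Because neurons made up most of the nuclei, they held 75.6% of all Ednra UMIs. The neuron subclusters formed a graded series. Pooled levels were at least 50 CPM in 9 of 25 subclusters, between 20 and 50 in 3 and under 20 in 13. Mean levels over pools were 123 CPM in n26 (led by Trpm8, the cold channel; 9 pools), 113 ± 49.4 in n17 (led by Dsp and F2r), 113 ± 20.5 in n4 (led by Cysltr2 and Gdpd4) and 111 ± 25.6 in n11 (led by Itgae and Ntsr1). In n4, the largest of these, the pools ran from 86.0 through 110.5 to 162 CPM. The jugular-type subcluster n10 had 21.9 ± 9.85 CPM, and the Agtr1a-rich n16 had 13.6 CPM. The step from n3 (34.4 ± 8.30 CPM) to n10 was the only one among 23 neighbouring pairs of Ednra subclusters that passed the test (0.61 ± 0.42 in log2, 12 of 12 pools, adjusted p = 0.0197). Thus none of the subclusters above 50 CPM was separated from its neighbour in the order. The small n27 (57 nuclei, led by Il31ra) had a pooled level of 118 CPM and too few pools for the test.

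**Figure D3:**
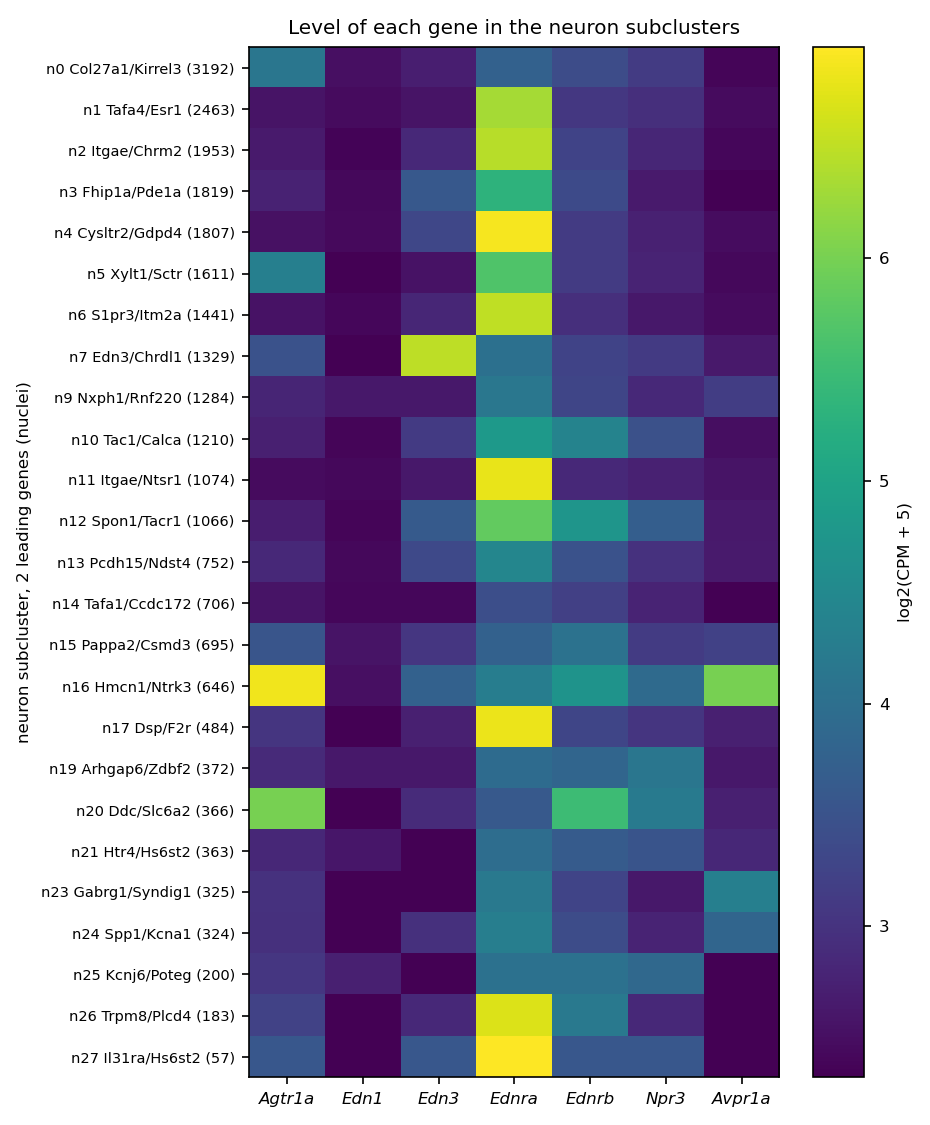
Level of each gene (columns; colour, log2 of CPM + 5, pooled over nuclei) in the 25 neuron subclusters (rows, each with 2 leading genes and its number of nuclei). Ednra is spread over many subclusters, whereas Edn3 stands out in n7, Agtr1a in n16 and n20, and Avpr1a in n16.

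Ednrb, the endothelin receptor of glia and endothelium, was highest in satellite glia, the cells that wrap sensory neurons. The satellite glia level was 86.6 CPM in the lowest pool, 115 at the median and 160 in the highest (118 ± 17.5, SD, n = 12). Myelinating Schwann cells had 43.6, 66.9 and 122 CPM (74.6 ± 24.5), and the ranges overlapped, but within pools satellite glia were higher in 12 of 12 (0.67 ± 0.38 in log2, adjusted p = 0.00342). Endothelial nuclei (64.4 ± 22.1 CPM) did not differ from myelinating Schwann cells (adjusted p = 0.369) and exceeded mural nuclei (38.4 ± 41.4) in 10 of 12 pools (adjusted p = 0.0399). Of the endothelial Ednrb UMIs, 65 lay in v0 and 23 in v4, against 18, 9, 3 and 2 in v1, v2, v6 and v8. Cluster v0 held satellite glia markers at a summed 2459 CPM beside endothelial markers at 1005, and v4 held myelinating Schwann cell markers at 5645 beside endothelial markers at 2024. The part of these glial markers in the endothelial Ednrb level was not tested. At resolution 2 a fibroblast class reached 125 CPM of Ednrb against 121 in satellite glia (adjusted p = 0.832). Neurons had 6.79 ± 1.43 CPM. Satellite glia held 35.3% of the Ednrb UMIs and 8.19% of all UMIs. An Ednrb UMI was seen in 26.5% of satellite glia (median 2029 UMIs) and in 2.17% of neurons (median 2911 UMIs).

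Within neurons, Ednrb was highest in n20 (45.8 ± 32.4 CPM), followed by n12 (22.9 ± 18.3) and n16 (19.1 ± 11.2). No neighbouring pair of these differed beyond the spread (adjusted p = 0.943 for n20 against n12 and 1.00 for n12 against n16). The summed satellite glia markers in the same subclusters were 920, 445 and 569 CPM, against a median of 144 and a range of 76.1 to 920 CPM over the 25 neuron subclusters. Their part in the Ednrb levels was not tested. Among vascular clusters, Ednrb was a pooled 96.8 CPM in the mural v7 (11 UMIs) and 14.6 CPM in the other mural cluster, v3 (5 UMIs). The endothelial clusters with glial markers, v0 and v4, had 83.2 and 82.4 CPM, and the others 68.0 (v1), 25.6 (v2), 23.9 (v6) and 18.5 CPM (v8).

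Agtr1a was highest in 2 neuron subclusters of different kinds. In n16, 646 nuclei (2.52 ± 0.58% of neurons) led by Hmcn1, Ntrk3, Agtr1a, Grin2a and Klhl1, the level was 69.5 CPM in the lowest pool, 103 at the median and 174 in the highest (109 ± 32.2, SD, n = 12). In n20, which carries the catecholamine genes Th, Dbh and Ddc with Slc6a2 and Gata3, it was 14.97, 50.9 and 123 CPM (59.4 ± 29.7). The ranges overlapped, n16 was higher in 10 of 12 pools, and the difference missed the threshold (adjusted p = 0.204). From n20 to the next, n5 (14.2 ± 6.31 CPM), the level dropped in 12 of 12 pools (1.68 ± 0.81 in log2, adjusted p = 0.0197). Subcluster n0 followed with 13.8 ± 9.76 CPM, and the median over 25 subclusters was 2.30 CPM. Nodose markers were also found in n20: P2rx2 at 143 CPM, Htr3a at 132, Phox2a at 7.97 and Htr3b at 62.2. In all neurons they were at 92.6, 118, 1.23 and 227. At resolutions 0.5 and 2, nuclei led by Slc6a2 and Dbh formed a separate unnamed cluster. A neuron subcluster led by Ddc and Dcc then had Agtr1a at 63.8 and 59.3 CPM. Whether n20 is sympathetic was not tested. An Agtr1a UMI was seen in 32.7% of n16 nuclei (interval 29.1 to 36.4, median 3144.5 UMIs) and in 0.992% of myelinating Schwann cells (median 1552). Thinned to 750 UMIs per nucleus, the share in n16 was 8.21% and in myelinating Schwann cells 0.332%. Subcluster n16 held 31.5% of all Agtr1a UMIs and 2.02% of all UMIs.

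Vessels also held Agtr1a. Endothelial nuclei had 30.1 ± 16.7 CPM (1 pool at 0) and mural nuclei 23.7 ± 36.0 CPM (7 pools at 0), with no difference beyond the spread (adjusted p = 0.227, and 0.0467 at resolution 0.5). Neurons as a whole (7.28 ± 1.34 CPM) were above satellite glia (5.02 ± 1.76) in 10 of 12 pools (0.30 ± 0.32 in log2, adjusted p = 0.0399). In the vascular clusters the pooled level was 82.1 CPM in v5 (25 UMIs), 79.2 in v7 (9 UMIs) and 68.0 in v1 (18 UMIs). No UMI was found in the 80 nuclei of v6, which allows up to 23.9 CPM (3 counts over the cluster).

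Avpr1a was low in every class, from 1.52 CPM in myelinating Schwann cells to 7.14 CPM in endothelial nuclei, and no neighbouring classes differed (adjusted p from 0.200 to 0.901). Its level in n16 was 17.1 CPM in the lowest pool, 52.5 at the median and 85.9 in the highest (52.8 ± 18.2, SD, n = 12). The next subcluster, n23, led by Gabrg1, Syndig1 and Cdh7, had 16.5 ± 12.6 CPM. The ranges overlapped, but within pools n16 was higher in 12 of 12 (1.58 ± 0.75 in log2, adjusted p = 0.0197). Subcluster n16 held 38.2% of all Avpr1a UMIs, and 17.5% of its nuclei had one (interval 14.6 to 20.6), against 0.361% of myelinating Schwann cells. Without ML1 and FL1 the difference was 1.61 for Avpr1a and 2.88 for Edn3 in its own subcluster, and the adjusted p rose to 0.102 for both. With 10 pools the exact test cannot give an unadjusted p below 0.00195.

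**Figure D4:**
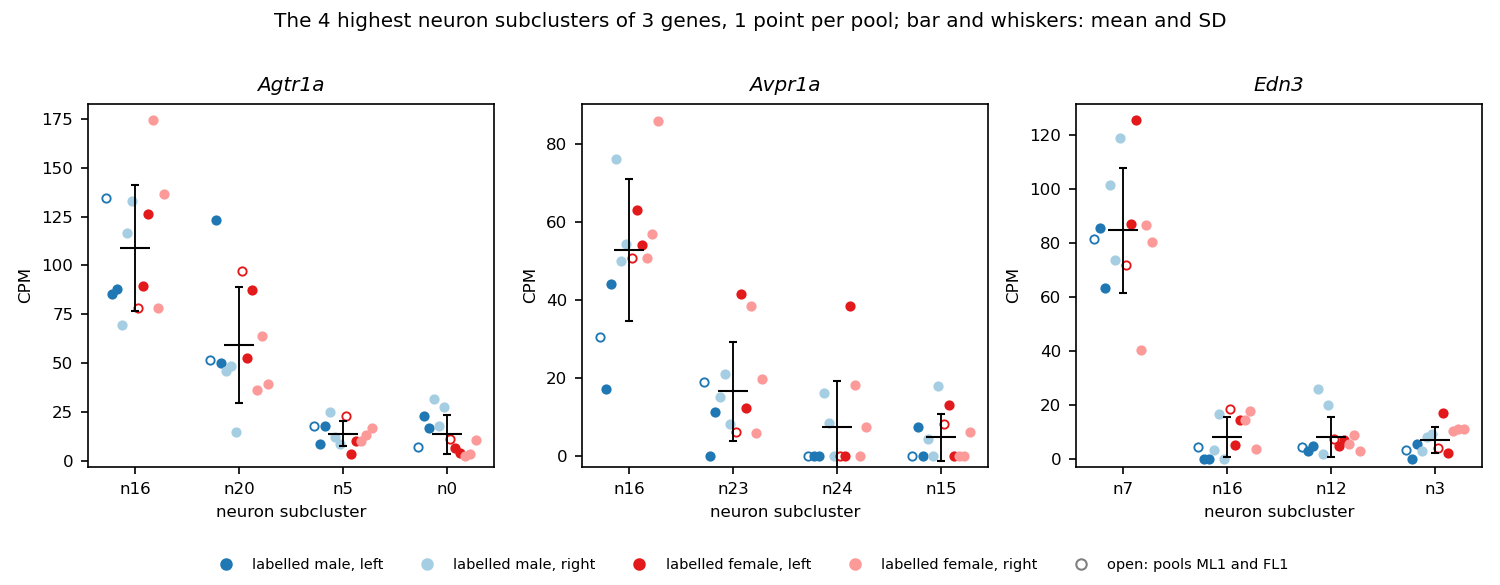
Level (y axis, CPM) of Agtr1a, Avpr1a and Edn3 in the 4 neuron subclusters where each was highest (x axis), with 1 point per pool, a bar at the mean and whiskers of 1 SD. The n7 points for Edn3 lie between 40.3 and 125 CPM, above all pools of the other subclusters shown.

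Agtr1a and Avpr1a were also found in the same nuclei of n16. Of its 646 nuclei, 211 had an Agtr1a UMI and 113 an Avpr1a UMI, and 62 had both, where the product of the 2 shares gives 36.9. Those 62 were 29.4% of the Agtr1a nuclei and 54.9% of the Avpr1a nuclei. Over all neurons 67 nuclei had both genes, so 5 lay outside n16. Nuclei with more UMIs have more chances of both, and no test was made over nuclei. Ednra and Edn3 shared 66 neurons (product of shares 73.7), and Agtr1a and Ednra 45 (product 84.5).

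Npr3, the clearance receptor, was at a lower level in neurons than in the other named classes. Neurons held 20.1% of the Npr3 UMIs (317) and 70.2% of all UMIs. The mean Npr3 level was 134 ± 89.3 CPM in mural nuclei, 65.6 ± 25.4 in myelinating Schwann cells, 53.2 ± 21.7 in endothelial nuclei, 36.3 ± 41.0 in fibroblasts and 34.1 ± 21.5 in satellite glia. None of these neighbours differed beyond the spread (exact sign-flip test, adjusted p from 0.171 to 0.512). Without FL3 mural nuclei passed the test against myelinating Schwann cells (adjusted p = 0.0299). Neurons were at 1.82 CPM in the lowest pool, 2.85 at the median and 6.22 in the highest (3.11 ± 1.27), below satellite glia in 12 of 12 pools (2.11 ± 0.57 in log2, adjusted p = 0.00342). All 25 neuron subclusters were under 20 CPM. In the vascular clusters the pooled level was 148 CPM in v5, 141 in v7, 128 in v6 and 122 in v3, and 1 UMI was found in v8, an endothelial cluster led by Vwf and Aqp1.

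The genes whose levels ran most alike were sought over 52 clusters, among 7927 genes with at least 50 CPM in 1 cluster, by Pearson correlation of log2(CPM + 5). Clusters share libraries and depth, so the values are a description. For Edn1 they were Sox17, an endothelial transcription factor (r = 0.972), an unnamed entry (0.972) and Adcy4 (0.968). Ednra ran most like Adcy3 (0.857), Ptafr (0.809) and an unnamed entry (0.798), and Agtr1a like Nckap5 (0.800), Adcyap1r1 (0.754) and Sh3bp1 (0.725). For Avpr1a the genes were Tbx2 (0.776), Hmcn1 (0.634) and Plcl1 (0.627), and for Edn3 Kcng1 (0.589), an unnamed entry (0.544) and Pstpip1 (0.519). Ednrb ran most like AABR07028488.1 (0.948), Niban1 (0.936) and Daam2 (0.934), and Npr3 like Cobll1 (0.939), Kank2 (0.939) and Kat6a (0.938). The highest values for Edn3 and Avpr1a were lower than those of the other 5 genes.

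Of 46 further genes of these pathways, 41 had an entry and 15 had a class at least 2-fold above the other classes pooled, 9 of them in mural nuclei, 3 in myelinating Schwann cells, 2 in neurons and 1 in endothelial nuclei. Of the 33 with at least 10 UMIs these 15 made up 45.5%, where 25.7% of all 18792 genes with that many UMIs passed the same fold. Mural nuclei led for 9 of the 33 (27.3%), where they did for 8.05% of all genes, and the lists were chosen with these data known. The remaining 5 are not analysed here. Ace, which converts angiotensin I, was at a pooled 94.0 CPM in mural and 50.3 in endothelial nuclei, against 0.702 in neurons. Mme (neprilysin), a peptidase that degrades these peptides, was at 133 CPM in myelinating Schwann cells and 4.78 in neurons. Mas1, the receptor for angiotensin-(1-7), reached 10.9 CPM in mural nuclei, and Agtrap, a protein that binds the angiotensin receptor, 8.20 in satellite glia. Ece1, which cuts endothelins to their active form, was at 402 CPM in mural nuclei and 145 in neurons, and Ece2 at 81.0 in neurons. Of the natriuretic peptide receptors that make cyclic GMP, Npr1 was at 16.8 CPM in endothelial nuclei and Npr2 at 105 in neurons. Of the calcium release channels downstream of these receptors, Itpr2 was at 553 CPM in mural nuclei, and Itpr3 at 401 in myelinating Schwann cells. Itpr1, with 45489 UMIs against 4986 and 6898, was at 1148 CPM in mural nuclei and 424 in neurons. Pde5a, which breaks down cyclic GMP, was at 179 CPM in mural nuclei and Pde2a at 155 in neurons. Avpr1b (22 UMIs) and Oxtr (9 UMIs) were near the limit of detection. Ligands were scarce: 48 UMIs were found for Agt, 7 for Edn2, 4 for Nppa, 1 each for Nppc and Oxt, and none for Avp and Nppb. In all, 8 of the 41 genes had under 10 UMIs.

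Side was compared in UMIs summed per pool and class, with edgeR's quasi-likelihood test and Benjamini-Hochberg adjustment over all genes tested. None of the 7 genes was called by side in any class. In neurons 6 were tested (Edn1 was too low) and 0 had an adjusted p under 0.05, where 0.0855% of all 14034 genes did. At an unadjusted p under 0.05 the counts were also 0, against 6.43% of all genes. Avpr1a was at 0.969 to 3.57 CPM in left pools (2.27 ± 1.09) and 2.37 to 4.88 in right pools (3.28 ± 0.96), with overlapping ranges (log2 right over left 0.55, SE 0.27, edgeR adjusted p = 0.771). Agtr1a was at 6.71 ± 0.77 CPM in left and 7.85 ± 1.52 in right pools (0.24, SE 0.13, edgeR adjusted p = 0.784). The interaction of side and labelled sex gave 0 calls in neurons (0.00% of all genes), with Avpr1a (−1.32, SE 0.46) and Edn3 (−0.80, SE 0.34) under the unadjusted threshold as did 3.96% of all genes, and an edgeR adjusted p of 1.00 for both. In satellite glia 3 genes were tested (Ednra, Ednrb and Npr3), in myelinating Schwann cells 2 (Ednrb and Npr3) and in endothelial nuclei 2 (Ednra and Ednrb). None was called by side, where the share of all genes called was 0.00%, 0.0148% and 0.00%, and none had an unadjusted p under 0.05, against 5.16%, 6.17% and 4.82% of all genes.

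Labelled sex gave no call among the 7 genes either. In neurons 0 of 6 passed, where 0.314% of all genes did. At an unadjusted p under 0.05 there were 2, Ednrb and Ednra, against 19.2% of all genes. Ednrb was at 6.57 to 9.17 CPM in the male-labelled (7.87 ± 0.98, n = 6) and 4.66 to 7.25 in the female-labelled pools (5.73 ± 0.88), so that the ranges overlapped narrowly (log2 female over male −0.47, SE 0.12, edgeR adjusted p = 0.0751). That value lay near the threshold: it passed with DESeq2 (adjusted p = 0.0457), with no filter on low counts (0.0468) and without MR1 (0.0493), and not in the other 15 of 18 settings, being 0.161 without ML1 and FL1. The difference was smallest with at least 500 genes per nucleus (−0.24, unadjusted p = 0.082, adjusted p = 0.332) and next smallest with the left-out genes kept for clustering (−0.28, adjusted p = 0.251). Satellite glia markers summed over the same neurons reached 179 ± 30.4 CPM with the male label and 144 ± 30.2 with the female label, and their part in the difference was not tested. Ednra ran from 51.8 to 63.0 CPM with the male label (57.3 ± 4.86) and from 46.4 to 59.7 with the female label (50.9 ± 4.58), with a log2 difference of −0.17 (SE 0.07, edgeR adjusted p = 0.212). ML1 was the lowest male-labelled and FL1 the highest female-labelled pool, and without both the difference was −0.24 (SE 0.07, edgeR adjusted p = 0.124).

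In glia the largest log2 differences by labelled sex among the genes tested were those of Npr3. In satellite glia it ran from 12.8 to 27.6 CPM in 5 male-labelled pools and stood at 79.0 in ML1, and from 31.5 to 77.8 in 5 female-labelled pools and at 25.7 in FL1. With all 12 pools the log2 difference was 0.39 (SE 0.28, edgeR adjusted p = 0.952). Without ML1 and FL1 the groups did not overlap and it was 1.01 (SE 0.23, edgeR adjusted p = 0.0559), and without ML1 alone 0.97 (SE 0.22, edgeR adjusted p = 0.0775). In myelinating Schwann cells Npr3 ran from 29.3 to 80.6 CPM with the male label (51.7 ± 17.9) and from 61.6 to 118 with the female label (88.6 ± 23.6), a log2 difference of 0.65 (SE 0.20, edgeR adjusted p = 0.741). Without ML1 and FL1 it was 0.80 (SE 0.22, edgeR adjusted p = 0.136). No gene of the 7 was called by labelled sex in satellite glia (0.00% of all genes), myelinating Schwann cells (0.00%) or endothelial nuclei (0.00%). Unadjusted, 1 of 3 passed in satellite glia (Ednrb, log2 −0.20, SE 0.10), 1 of 2 in myelinating Schwann cells (Npr3) and 0 of 2 in endothelial nuclei, against 5.23%, 5.20% and 3.23% of all genes. In neurons the Npr3 level was 3.00 ± 1.67 CPM with the male label and 3.23 ± 0.86 with the female label.

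**Figure D5:**
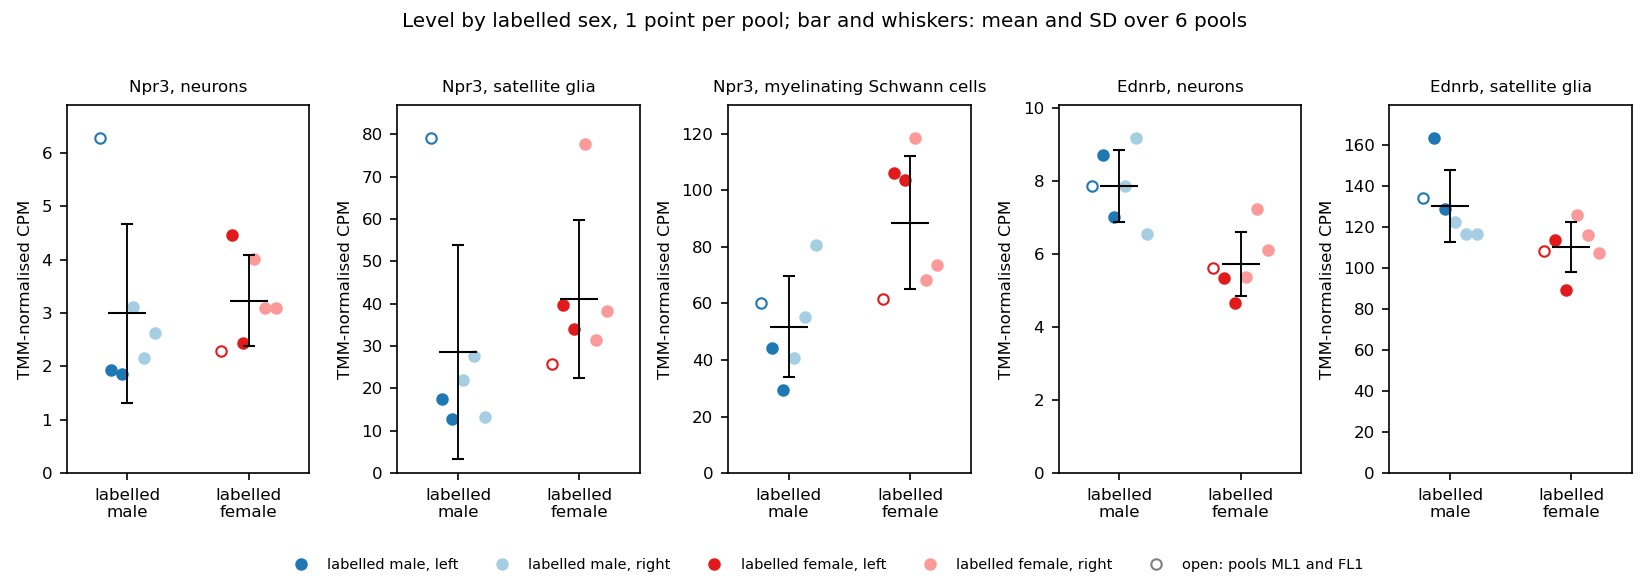
Level (y axis, CPM scaled to the normalised library size) of Npr3 in neurons, satellite glia and myelinating Schwann cells and of Ednrb in neurons and satellite glia, by labelled sex (x axis), with 1 point per pool, a bar at the mean, whiskers of 1 SD over 6 pools, and ML1 and FL1 as open circles. In satellite glia the Npr3 level of ML1 lies at 79.0, above the other male-labelled pools, and that of FL1 at 25.7, below the other female-labelled pools.

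No other gene of the pathway lists was called by side or labelled sex in any class. In neurons 27 of the 46 were tested, and by labelled sex 6 had an unadjusted p under 0.05, where 19.2% of all genes did. The lowest adjusted p was that of Pde5a (log2 female over male −0.60, edgeR adjusted p = 0.0564). The median log2 difference of the 27 genes by labelled sex was −0.08, beside −0.00031 over all genes tested, and by side −0.04 beside −0.00769.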

How the data were processed

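Single-nucleus RNA counts of 12 pools were analysed. Per the labels' protocols, the authors fixed and barcoded nuclei with Evercode version 2 kits, split them into 8 sublibraries and sequenced paired ends; the submitters' processing notes name the build mRatBN7.2, R 4.3.2 and Seurat 4.1.3. The deposited values are raw UMI counts per nucleus and gene, with the authors' table of nuclei giving pool, transcript counts and gene counts. An aligner and a barcode filter: not given in the sources used here. Priming within nuclear transcripts counts introns, so levels were not compared between genes.

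The 7 genes, the pathway lists and the comparisons were chosen with earlier results of these data known. Sex, side and number were read from the pool names. Nuclei needed 300 genes or more, and no more than 5% of UMIs from 13 mitochondrial genes (1 removed). Scrublet called 2 doublets (0.00544%) and so hardly worked. Clustering (scanpy 1.11.5, leidenalg 0.10.2, resolution 1) left out the 7 genes and the pathway genes, first on 3000 variable genes, then on 2000 within neurons and other nuclei, and the vascular nuclei once more. Of 19 marker lists, a cluster was named by the one with at least 3 markers 2-fold higher, in 10% of its nuclei, and 1 among its 10 leading genes. Settled after the clusters were seen: neurons needed 3 neuron markers 1.5-fold above the named non-neuronal clusters other than satellite glia, the sympathetic list served as a neuron subtype, and clusters stayed unnamed where another list had more leading markers, where a mural cluster had under 2, where the median depth was over 1.5 times that of the pools, or below 20 nuclei. Neuron clusters with glial or muscle markers (n8, n18 and n22) stayed unnamed.

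Levels are CPM with mean and SD over pools of at least 5 nuclei. Neighbouring levels were compared by two-sided exact sign-flip permutation tests of log2(CPM + 5) over at least 8 pools, both groups from the same pool; with 12 pools the smallest p is 0.000488. UMIs summed per pool, where each pool had 20 or more nuclei of the class, were tested with edgeR 4.0.16 (R 4.3.3; quasi-likelihood, TMM, filterByExpr), with side and labelled sex as terms. Benjamini-Hochberg adjusted p under 0.05 is a call. Named genes are the 7, pathway genes called or, at most 2 per list, with the highest fold of a class, and the 3 genes most alike per gene. Cluster-leading genes, scarce ligands and Itpr1 were named beside them. Intervals are exact binomial or Poisson at 95% and cover counting error only. The edgeR step was tested on simulated data. Alternatives were DESeq2 1.42.0, no filter, leaving out pools, a replicate block, the genes kept for clustering, resolutions 0.5 and 2, a pseudocount of 1, at least 10 nuclei per pool, 500 genes per nucleus, and removal of the 5% of nuclei with the highest doublet scores.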

Additional observations from a re-analysis of the deposited data

Results flagged for a closer look

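Pools were grouped by 6, once by side and once by labelled sex. A pool was marked where its gap to the nearest pool was, as a share of the group's range, above Dixon's 95% critical value for 6 values. Chance marks about 1 in 20 groups, and 5 of 52 groups were marked. All 5 were groups by labelled sex, and no group by side was marked. In satellite glia, Npr3 in ML1 was 79.0 CPM with the nearest male-labelled pool at 27.6, and Npr3 in FR1 was 77.8 CPM with the nearest female-labelled pool at 39.6. In neurons, Npr3 in ML1 was 6.27 CPM, the nearest being 3.12. Ednra in neurons of FL1 was 59.7 CPM, the nearest female-labelled pool being 50.9. Ednrb in satellite glia of ML2 was 163 CPM, the nearest male-labelled pool being 134. Of the 5 values, 3 belong to ML1 and FL1, the pools whose Y-linked transcripts went against their labels.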

How the results depend on the processing

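The number of genes whose highest class differed from the next was 2 (Ednra and Ednrb), with 2 to 3 on leaving out each pool, 4 at Leiden resolution 0.5 (Agtr1a and Edn3 added) and 1 at resolution 2, where a fibroblast class led for Ednrb. The number whose highest neuron subcluster differed was 2 (Edn3 and Avpr1a), with 0 to 2 on leaving out each pool: it was 0 without ML1, FL1, FL3, FR1, FR2 or FR3 and 0 without ML1 and FL1. With 11 pools the smallest p rises to 0.000977, and the adjusted p of both genes then stayed at or below 0.0524. Without ML1 and FL1, with 10 pools, the adjusted p was 0.102 for both. Over 16 settings that kept the clusters the log2 differences were 2.80 to 3.87 for Edn3 and 1.4996 to 1.9897 for Avpr1a. The upper end of each range came from the pseudocount of 1, which changes the scale. At resolution 2 the number of genes was 0, with an adjusted p of 0.0581 for both genes. The highest class by CPM was the same for 3 of 7 genes when read from the share of nuclei with a UMI at 750 UMIs per nucleus, and for 4 of 7 at resolution 2. Members called by labelled sex in neurons numbered 1 with DESeq2, 1 without the filter on low counts and 0 to 1 on leaving out each pool (1 without MR1), each time Ednrb. Genes called by labelled sex in neurons over all genes numbered 44, and 515 with DESeq2, 621 without the filter, 631 without MR1 and 0 without ML2, so the threshold on labelled sex was unstable. By side they numbered 12, 68 with DESeq2 and 42 without the filter. The replicate block on pool number gave 0 members called by side in each class, and 3 genes in neurons. Left and right pools number 2 of the male label deviated together (r = 0.543 over 5249 genes), but in the other 5 pairs r was −0.118 to 0.115, and 2 of 6 left pools were closest to their own number, so the numbers were not used as pairs. The other counts of members called were 0 in every setting run, and the 9 fold changes tabulated over settings kept their sign. Depth set limits: the vascular cluster v6 had 0 Agtr1a UMIs, and Agtr1a, Edn1, Edn3 and Avpr1a were too low in satellite glia to test.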

Other observations

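Agtr1a in n0, the largest neuron subcluster (led by Col27a1, Kirrel3 and Fhip1a), was picked out after its values had been seen, so it is described without a test. It was at 20.8 ± 8.76 CPM (SD, n = 6) in the male-labelled pools, with a range of 7.32 to 32.1, and at 6.71 ± 3.69 in the female-labelled pools, with a range of 2.65 to 11.5. The lowest male-labelled pool was ML1 and the highest female-labelled pool was FL1. Without both, the male-labelled pools ran from 17.0 to 32.1 CPM and the female-labelled pools from 2.65 to 10.7.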
